A study of Mus musculus with 4 samples.

Results

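Expression of 10 genes of the unfolded protein response and the integrated stress response was followed in mouse peritoneal macrophages after microcurrent stimulation (MCS). The genes were listed by name, and all 10 were found among the 15298 genes with deposited values. The ER chaperone group comprised *Hspa5*, *Hsp90b1*, *Xbp1*, *Herpud1* and *Dnajb9*, which serve folding, degradation and signaling at the endoplasmic reticulum (ER). The ATF4 group comprised *Atf4* itself and *Ddit3*, *Trib3*, *Chac1* and *Asns*, genes known as its targets.

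The study asked how MCS and the time of day affect macrophages. Female BALB/c mice, 6 weeks of age, were anesthetized with isoflurane and fitted with pads on belly and back, and in the MCS groups alone a pulsed current (300 µA, 400 Hz, both directions) then ran between the pads for 15 min. Macrophages were sorted from the peritoneal cavity as CD11b-positive, F4/80-positive and Ly6G-negative cells, and their RNA was sequenced. Zeitgeber time (ZT) counts the hours from lights on, so that ZT2 lies early in the light period, just when MCS had ended, and ZT14 lies 12 h later in the dark period. The 4 groups were thus control and MCS, each at ZT2 and ZT14. Each group had 1 library, and how many mice contributed to it is not stated in the sources used here.

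Expression is given as CPM, read counts scaled to the size of the library, and the reads behind each value could be recovered. The control libraries held 8658191 reads (ZT2) and 9217493 reads (ZT14), and the MCS libraries held 8365590 reads (ZT2) and 9953243 reads (ZT14). A single read was worth between 0.102 and 0.116 CPM, and a gene with no read may be present at a level of up to 3 reads. Log2 ratios were taken after adding 0.1 CPM to each value. The 95% intervals are exact intervals on the reads of a pair of libraries. They cover counting error only and compare libraries, not groups of mice, and no value has a replicate check. In bulk RNA, fewer cells of a type and less RNA per cell cannot be told apart.

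Macrophage markers were abundant in each library. The 11 markers summed to 26668 CPM (ZT2) and 25850 CPM (ZT14) in control and 25791 CPM (ZT2) and 28481 CPM (ZT14) in MCS, with *Lyz2* as the most abundant gene. Markers of other peritoneal cells were present despite the sort. The 8 B cell markers listed summed to between 1168 and 1662 CPM, with *Cd79a* highest on average, and the 8 mast cell markers to between 979 and 2293 CPM, led by *Cma1*. Plasma cells carry a large ER, and the 8 genes listed as their markers summed to between 63.8 and 83.5 CPM. *Mzb1* was the most abundant of these, with between 26.4 and 52.0 CPM, and *Tnfrsf17* was at 0 in a library and at most at 0.33 CPM. The sum thus rests largely on *Mzb1*, and the presence of plasma cells cannot be read from it. The 8 T cell markers summed to between 38.4 and 58.1 CPM. Some lists moved with the groups. The 9 neutrophil markers summed to 33.6 CPM (ZT2) and 32.3 CPM (ZT14) in control and to 122 CPM (ZT2) and 18.7 CPM (ZT14) in MCS, with *Mpo*, *Elane*, *Camp* and *Ngp* at 0 in at least 1 library. The 6 red blood cell markers summed to 3.23 CPM and 1.32 CPM in control and to 36.7 CPM and 112 CPM in MCS, in the same order of times. The 4 eosinophil markers summed to 67.8 CPM and 58.7 CPM in control and to 77.8 CPM and 90.1 CPM in MCS. *Il5ra* leads this sum and was lowest in MCS at ZT14 (33.9 CPM), so the sum hides larger differences the other way in other markers. *Ccr3* had 5.31 CPM (ZT2) and 1.32 CPM (ZT14) in control and 12.2 CPM (ZT2) and 33.8 CPM (ZT14) in MCS. *Siglecf* had 1.27, 0.659, 5.80 and 14.1 CPM in that order. The 8 mesothelial markers, with sums of 14.1, 6.15, 19.1 and 7.36 CPM, and the 6 fibroblast markers, with 18.8, 5.16, 21.8 and 10.2 CPM, were higher at ZT2 under both treatments.

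The ER folds secreted and membrane proteins, and unfolded proteins in its lumen activate the sensors IRE1, PERK and ATF6. IRE1 splices the messenger RNA of *Xbp1* into a form that encodes an active transcription factor, and ATF6 is cut by proteases to release another, and both raise the transcription of ER chaperones and of genes for the degradation of misfolded proteins. PERK shares its substrate, the translation factor eIF2α, with kinases that sense amino acid shortage, heme shortage and viral RNA, and phosphorylated eIF2α lowers protein synthesis while the messenger RNA of *Atf4* is translated more. Macrophages use these pathways when they secrete cytokines. The values here are total transcript levels per gene, so neither the splicing of *Xbp1* nor the translation of *Atf4* can be read from them.

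Levels of different genes were compared per kilobase of the longest coding transcript. On this scale the ER chaperone group was far above most of the ATF4 group. *Hsp90b1* had a mean of 333 CPM per kb over the 4 libraries and *Hspa5* one of 195 CPM per kb. *Xbp1* followed at 70.3 CPM per kb, *Herpud1* at 49.4, *Atf4* at 44.9 and *Dnajb9* at 30.0 CPM per kb. *Herpud1*, between 45.5 and 57.2 CPM per kb, and *Atf4*, between 41.7 and 46.2 CPM per kb, overlapped in their ranges over the libraries, whereas the other neighbors among these 6 genes did not. *Atf4* thus stood at the level of the ER genes, while the genes known as its targets did not. *Ddit3* had 6.66 CPM per kb, *Asns* 1.05, *Chac1* 0.328 and *Trib3* 0.150 CPM per kb. The ranges of *Asns* and *Chac1* overlapped, as did those of *Chac1* and *Trib3*.

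**Figure D1:**
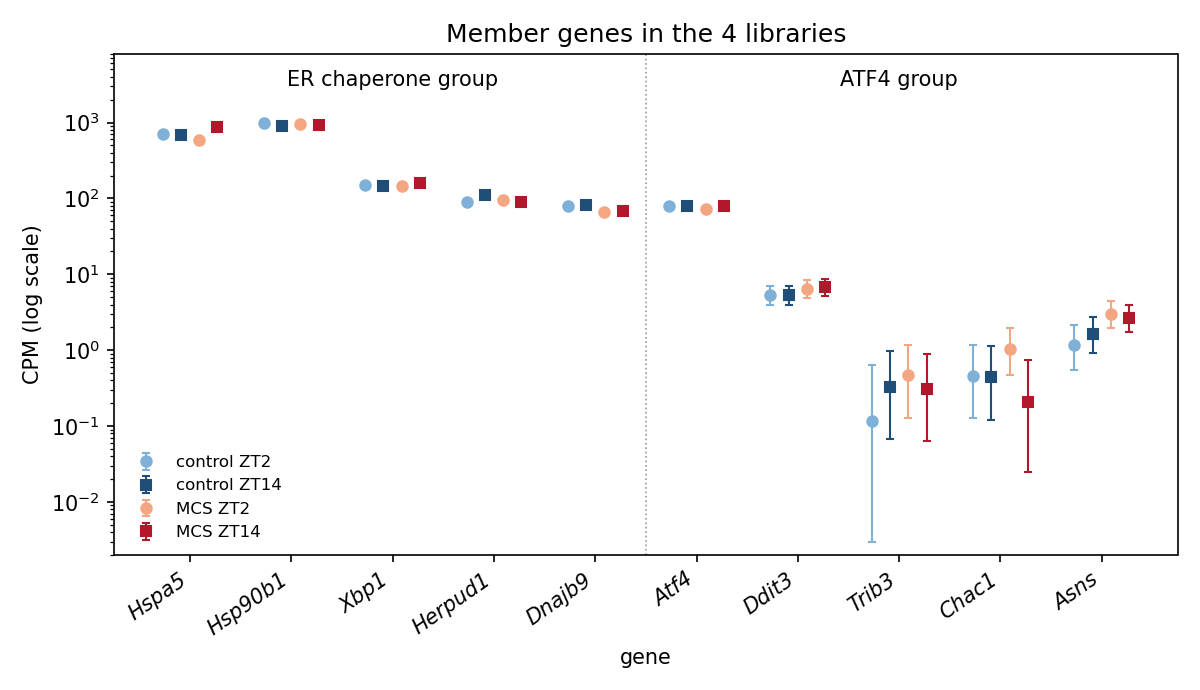
Expression of the 10 genes in each of the 4 libraries, in CPM on a log scale, with circles for ZT2, squares for ZT14, blue for control and red for MCS. Bars are exact 95% Poisson intervals for counting error. *Hspa5* is lowest in MCS at ZT2 (586 CPM) and highest in MCS at ZT14 (867 CPM), and the bars are wide for *Trib3*, *Chac1* and *Asns*.

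*Hspa5* (chr2:34771970-34777547, plus strand of GRCm38) encodes BiP, the main HSP70 chaperone of the ER lumen, which also holds the sensors inactive. It had 717 CPM (ZT2) and 693 CPM (ZT14) in control and 586 CPM (ZT2) and 867 CPM (ZT14) in MCS. The control libraries lay close together, and the MCS libraries lay on either side of them. The log2 ratio of MCS to control was -0.29 at ZT2 (95% interval -0.34 to -0.24) and 0.32 at ZT14 (0.28 to 0.37). These ratios share no library, and they differed by 0.61 (0.54 to 0.69). Between the times of day, which compares the same 4 libraries in other pairs, the log2 ratio of ZT2 to ZT14 was 0.05 in control (-0.00 to 0.10) and -0.56 in MCS (-0.62 to -0.51). *Hspa5* was therefore nearly equal at ZT2 and ZT14 in the control libraries, and the hours between these times were not sampled. It was 1.48 times as high in the highest library as in the lowest, both of which came from MCS.

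*Hsp90b1* (chr10:86690209-86705509, minus strand) encodes GRP94, the HSP90 chaperone of the ER lumen. Its values were 972 CPM (ZT2) and 888 CPM (ZT14) in control and 970 CPM (ZT2) and 933 CPM (ZT14) in MCS. The highest library exceeded the lowest by a factor of 1.09, the smallest such factor among the 10 genes. For MCS against control, the log2 ratio was -0.00 at ZT2 (-0.05 to 0.04) and 0.07 at ZT14 (0.03 to 0.11). A shift of the size seen for *Hspa5* was thus outside its counting intervals at both times.

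Within a library, the ratio of *Hspa5* to *Hsp90b1* reads does not depend on how libraries are scaled. This ratio was chosen after the values were seen, and since *Hsp90b1* varied least it restates the values of *Hspa5* and is no separate support. It was 0.737 in control at ZT2 (95% interval 0.713 to 0.762) and 0.780 in control at ZT14 (0.754 to 0.806). It was 0.604 in MCS at ZT2 (0.583 to 0.626) and 0.930 in MCS at ZT14 (0.903 to 0.958). Part of the *Hsp90b1* exons overlaps those of *1810014B01Rik* on the opposite strand, over 273 bases of shared sequence in the transcripts. Whether the counting used the strand is not stated, and *1810014B01Rik* had between 2.42 and 4.04 CPM.

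*Xbp1* (chr11:5520659-5525893, plus strand) encodes the transcription factor downstream of IRE1. It had 150 CPM (ZT2) and 145 CPM (ZT14) in control and 144 CPM (ZT2) and 161 CPM (ZT14) in MCS. The order of the libraries resembled that of *Hspa5* at a smaller size, with MCS at ZT14 highest and MCS at ZT2 lowest. MCS differed from control by a log2 ratio of -0.06 at ZT2 (-0.17 to 0.05), which includes no difference, and 0.15 at ZT14 (0.04 to 0.26). The ratios differed by 0.21 (0.06 to 0.36).

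*Herpud1* (chr8:94386438-94395377, plus strand) encodes a membrane protein of the ER that helps assemble the complex for ER associated degradation. It had 90.8 CPM (ZT2) and 112 CPM (ZT14) in control and 94.7 CPM (ZT2) and 88.9 CPM (ZT14) in MCS. The control library at ZT14 stood apart as the highest. The log2 ratio of MCS to control was 0.06 at ZT2 (-0.08 to 0.20) and -0.33 at ZT14 (-0.46 to -0.20). At ZT14 the sign was opposite to that of *Hspa5*, and at ZT2 the interval includes no difference. The difference between the ratios was -0.39 (-0.58 to -0.20). In control, *Herpud1* was lower at ZT2 than at ZT14, with a log2 ratio of -0.30 (-0.43 to -0.16), while in MCS the ratio was 0.09 (-0.05 to 0.23).

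*Dnajb9* (chr12:44205559-44210326, minus strand) encodes ERdj4, a cochaperone of BiP and a target of XBP1. It had 79.9 CPM (ZT2) and 81.0 CPM (ZT14) in control and 66.5 CPM (ZT2) and 68.2 CPM (ZT14) in MCS. Here both MCS libraries lay below both control libraries, with little difference between the times. With MCS against control, the log2 ratio was -0.27 at ZT2 (-0.43 to -0.10) and -0.25 at ZT14 (-0.40 to -0.09), and the ratios differed by 0.02 (-0.20 to 0.24). *Hspa5*, *Herpud1* and *Dnajb9*, which are all raised in the unfolded protein response, thus followed different orders across the 4 libraries.

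As a group, the 5 ER genes had a median log2 ratio of MCS to control of -0.06 at ZT2, with 4 lower and 1 higher, and of 0.07 at ZT14, with 3 higher and 2 lower. Over all genes above the minimum expression the medians were 0.00 at ZT2 and 0.00 at ZT14. Their summed expression was 2009 CPM (ZT2) and 1918 CPM (ZT14) in control and 1861 CPM (ZT2) and 2117 CPM (ZT14) in MCS. *Hspa5* and *Hsp90b1* hold most of this sum.

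*Atf4* (chr15:80255184-80257541, plus strand) encodes the transcription factor at the center of the integrated stress response. It had 78.8 CPM (ZT2) and 79.6 CPM (ZT14) in control and 71.9 CPM (ZT2) and 79.1 CPM (ZT14) in MCS. All but MCS at ZT2 lay within 1 CPM of each other. MCS differed from control by a log2 ratio of -0.13 at ZT2 (-0.29 to 0.03) and -0.01 at ZT14 (-0.16 to 0.14). Both intervals include no difference.

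*Ddit3* (chr10:127290774-127296288, plus strand) encodes CHOP, a transcription factor known for promoting cell death under lasting ER stress. It had 5.31 CPM (ZT2) and 5.27 CPM (ZT14) in control and 6.38 CPM (ZT2) and 6.75 CPM (ZT14) in MCS, from 46, 48, 55 and 66 reads. The MCS libraries were above the control libraries at both times. The log2 ratio of MCS to control was 0.26 at ZT2 (-0.33 to 0.86) and 0.35 at ZT14 (-0.20 to 0.92), and at this depth neither difference could be detected. An exon of *Ddit3* overlaps exons of *Mars* by 135 bases on the opposite strand, and *Mars* had between 26.3 and 41.5 CPM, highest in MCS at ZT14. How many reads were assigned across this overlap was not tested.

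*Asns* (chr6:7675169-7693254, minus strand) encodes asparagine synthetase and is a classical target of ATF4 under amino acid shortage. It had 1.15 CPM (ZT2) and 1.65 CPM (ZT14) in control and 3.02 CPM (ZT2) and 2.66 CPM (ZT14) in MCS, from 10, 15, 26 and 26 reads. Both MCS libraries lay above both control libraries. For MCS against control, the log2 ratio was 1.31 at ZT2 (0.29 to 2.60) and 0.66 at ZT14 (-0.28 to 1.71). The interval at ZT2 excludes no difference but reaches down to a small one, and the interval at ZT14 includes no difference. The ratios differed by -0.65 with an interval from -2.09 to 0.70. The sums of neutrophil markers (122 CPM) and mast cell markers (2293 CPM) were also highest in MCS at ZT2, and red blood cell markers and the eosinophil markers *Ccr3* and *Siglecf* were higher in both MCS libraries. The part of these cells in the *Asns* ratio was not tested.

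*Chac1* (chr2:119351229-119354381, plus strand) encodes an enzyme that breaks down glutathione. It had 0.462 CPM (ZT2) and 0.439 CPM (ZT14) in control and 1.04 CPM (ZT2) and 0.205 CPM (ZT14) in MCS, from 4, 4, 9 and 2 reads. MCS differed from control by a log2 ratio of 1.03 at ZT2 with an interval from -0.66 to 3.33, and -0.82 at ZT14 with one from -4.57 to 1.70. *Trib3* (chr2:152337422-152344032, minus strand) encodes a pseudokinase that restrains ATF4 and CHOP activity. It had 0.115 CPM (ZT2) and 0.330 CPM (ZT14) in control and 0.464 CPM (ZT2) and 0.307 CPM (ZT14) in MCS, from 1, 3, 4 and 3 reads. Its log2 ratio of MCS to control at ZT2 was 1.39 with an interval from -1.33 to 7.63, and at ZT14 no ratio is given because both libraries were at 3 reads. Both genes were close to the limit of detection, and no difference in either could be detected between MCS and control. Within MCS, the 9 reads of *Chac1* at ZT2 against 2 at ZT14 gave a log2 ratio of 1.91 with an interval from 0.08 to 5.60, which excludes no difference but rests on few reads.

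With so few reads, the median of the ATF4 group rests on single genes. The median log2 ratio of MCS to control over its 5 genes was 1.03 at ZT2, which is the value of *Chac1*, and -0.01 at ZT14, which is that of *Atf4*. Over the 3 genes above the minimum expression, *Atf4*, *Ddit3* and *Asns*, the medians were 0.26 at ZT2 and 0.35 at ZT14, both the values of *Ddit3*. *Atf4*, the only gene of the group with a mean of at least 10 CPM, had -0.13 and -0.01. After subtracting the median of each gene's class of transcript length, a step described below, the medians over the 3 genes were 0.34 and 0.12.

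The 10 genes were counted against fixed criteria. A gene was counted as different when its log2 ratio was beyond 1 in either direction and its pair of libraries had a mean above 1 CPM, a minimum that 8 of the 10 genes met in each comparison and *Trib3* and *Chac1* did not. For MCS against control at ZT2, 1 of the 8 genes, *Asns*, passed, and 2.21% of the 12612 genes above the minimum did. For MCS against control at ZT14, 0 of the 8 genes passed, beside 3.40% of 12368 genes. For ZT2 against ZT14, 0 of the 8 genes passed in control, beside 3.61% of 12465 genes, and 0 passed in MCS, beside 5.83% of 12534 genes. A single gene among 8 gives no result about the group, and the other counts were 0 against backgrounds of a few percent.

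A log2 ratio beyond 0.5 was counted by direction. For MCS against control at ZT2, *Asns* was higher, beside 5.58% of all genes, and 0 of the 8 genes were lower, beside 4.86%. At ZT14, *Asns* was again the gene that passed as higher, beside 8.68% of all genes, and 0 were lower, beside 8.02%. In control, 0 genes were higher at ZT2 than at ZT14, beside 9.37%, and 0 were lower, beside 5.98%. In MCS, 0 genes were higher at ZT2, beside 12.9%, and *Hspa5* was lower, beside 10.7%. At most 1 member passed in any of these counts.

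The count test of edgeR, fitted on the recovered reads with additive terms for MCS and time, assumes an equal effect of MCS at ZT2 and ZT14 and has 1 residual degree of freedom. It tested 8 of the 10 genes. For MCS, 0 of them were called at an adjusted p threshold of 0.05, beside 0.185% of the 12404 genes tested. For time, 0 were called, beside 2.18%. Without adjustment 1 member passed 0.05 for MCS, beside 299 of the 12404 genes, and this was *Asns* with a fitted log2 ratio of 1.01 and an adjusted p of 1 in edgeR, higher with MCS at both times. No member passed without adjustment for time, beside 1269 of all genes. The additive fit gives *Hspa5* a log2 ratio for MCS of 0.02, since its opposite ratios at ZT2 and ZT14 cancel.

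The genes around the 10 were described from lists by role. The first list holds the sensors and the proteases that release ATF6. At ZT14, all 6 genes of this list were lower with MCS (median log2 ratio -0.16), beside 6132 of all 12368 genes, and at ZT2 3 were higher and 3 lower, with a median of 0.06. *Ern1*, which encodes the sensor IRE1, had 94.7 CPM (ZT2) and 143 CPM (ZT14) in control and 92.3 CPM (ZT2) and 123 CPM (ZT14) in MCS. It was higher at ZT14 under both treatments, with log2 ratios of ZT2 to ZT14 of -0.59 (-0.72 to -0.46) in control and -0.41 (-0.54 to -0.28) in MCS. *Eif2ak3*, which encodes PERK, had a log2 ratio of MCS to control of 0.15 at ZT2 (-0.00 to 0.30) and -0.28 at ZT14 (-0.42 to -0.14). For *Atf6* the ratios were -0.01 (-0.12 to 0.10) and -0.22 (-0.32 to -0.11). At ZT14 the intervals of the 3 genes for ATF6B and the proteases include no difference. Long transcripts were lower with MCS at ZT14, and after subtracting the median of each gene's class of transcript length, a step described below, all 6 remained lower, with a median of -0.13, and *Ern1* and *Atf6* were at -0.13 and -0.13.

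The ER lumenal chaperones, cochaperones and folding enzymes other than the members formed a list of 26 genes. At ZT2, 19 of the 26 were lower with MCS, with a median log2 ratio of -0.16, and at ZT14 20 were higher, with a median of 0.18. The combination seen for *Hspa5*, lower with MCS at ZT2 and higher at ZT14, held for 17 of the 26 genes, or 65.4%, beside 29.5% of the 12236 genes above the minimum in both comparisons. Among the members it held for 3 of 8, or 37.5%. With both counting intervals beyond 0 it held for 1 of the 8, *Hspa5* itself, beside 651 of all 12236 genes. *Ppib*, which encodes the ER prolyl isomerase cyclophilin B, had 205 CPM (ZT2) and 173 CPM (ZT14) in control and 159 CPM (ZT2) and 238 CPM (ZT14) in MCS. Its log2 ratios of MCS to control were -0.36 at ZT2 (-0.46 to -0.26) and 0.47 at ZT14 (0.37 to 0.56). *Pdia5*, a disulfide isomerase, had the highest ratio of the list at ZT14, 0.65 (0.31 to 1.01). *Fkbp2*, another prolyl isomerase, went the other way, with 0.23 at ZT2 (-0.10 to 0.57) and -0.66 at ZT14 (-1.02 to -0.32).

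The translocon, the signal peptidase and the TRAP complex bring new proteins into the ER and trim them. Of the 16 genes in this list, 15 were lower with MCS at ZT2, with a median log2 ratio of -0.12, and 14 were higher at ZT14, with a median of 0.30. Both held for 13 of the 16 genes, or 81.3%, beside the same 29.5% of all genes. Outside the folding and translocon lists the share ran from 0% for the sensors to 61.5% for the aminoacyl tRNA synthetases. *Sec61b*, a subunit of the translocon, had 38.0 CPM (ZT2) and 34.9 CPM (ZT14) in control and 27.1 CPM (ZT2) and 55.6 CPM (ZT14) in MCS. Its log2 ratios of MCS to control were -0.48 at ZT2 (-0.73 to -0.24) and 0.67 at ZT14 (0.47 to 0.88), and it was the gene of the list that passed a log2 ratio of 1 between ZT2 and ZT14 in MCS, at -1.03 (-1.26 to -0.81). Relative to the median of its class of transcript length, this ratio between the times was -0.82, so that it no longer passed. *Ssr4*, a TRAP subunit, had -0.58 at ZT2 (-0.77 to -0.40) and 0.53 at ZT14 (0.37 to 0.69). *Sec62* was among those lower at ZT14, with -0.20 (-0.35 to -0.04).

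Genes of ER associated degradation, the process in which *Herpud1* takes part, formed a further list. *Derl3*, a gene of this list, is also among the genes listed as plasma cell markers. Of 16 genes, 10 were lower with MCS at ZT2, with a median log2 ratio of -0.12, and 8 were higher and 8 lower at ZT14, with a median of 0.01. *Derl1*, which encodes a channel component, had -0.11 at ZT2 (-0.21 to -0.02) and 0.50 at ZT14 (0.41 to 0.59). *Syvn1*, which encodes the ubiquitin ligase HRD1 that HERPUD1 binds, had 0.12 at ZT2 (-0.01 to 0.25) and -0.40 at ZT14 (-0.53 to -0.27). Lower at ZT2 and higher at ZT14 were 8 of the 16. With both counting intervals beyond 0 these were 6 of the 16, or 37.5%, beside 651 of all 12236 genes. On this criterion the folding list had 10 of 26 genes, or 38.5%, and the translocon list 7 of 16, or 43.8%. No gene of these lists had the reverse signs on it, beside 597 of all genes. The sign of *Syvn1* at ZT14 was that of *Herpud1*, and at ZT2 the intervals of both genes include no difference. The signs of *Derl1* were those of *Hspa5* at both times.

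**Figure D2:**
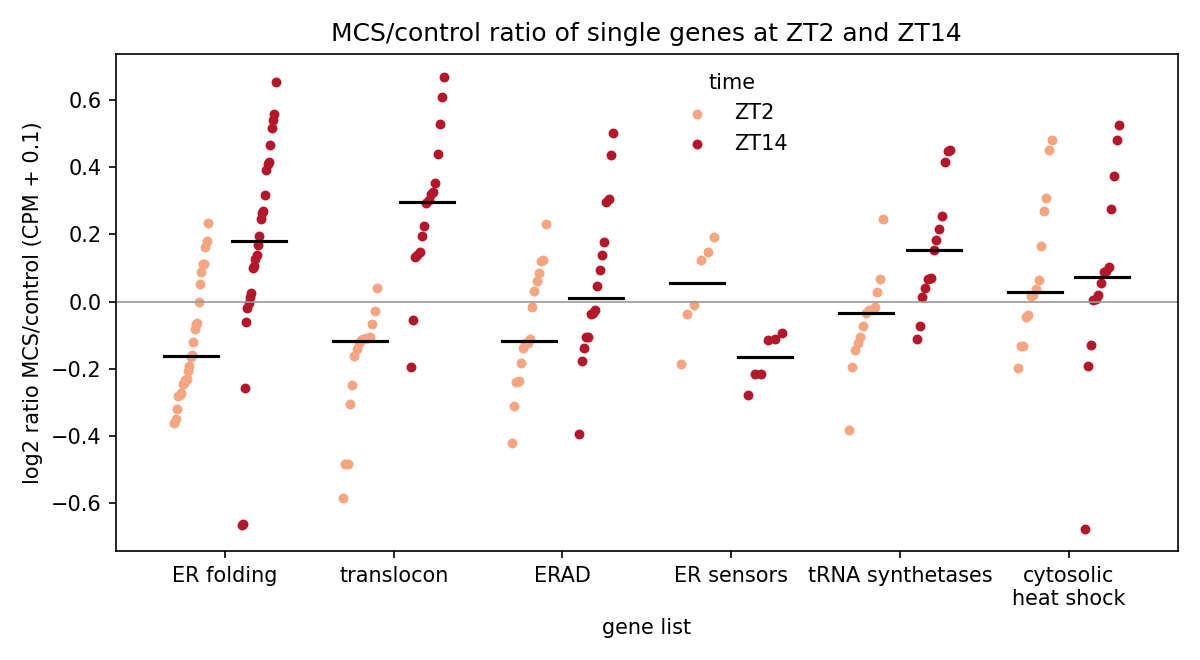
Log2 ratio of MCS to control for each gene of 6 lists at ZT2 (light) and at ZT14 (dark), computed on CPM with 0.1 added. Points are single genes in order of their value, and black lines are medians, which for the ER folding list lie at -0.16 at ZT2 and 0.18 at ZT14 and for the translocon list at -0.12 and 0.30.

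Other quantities moved with the ER lists. Short transcripts were higher with MCS at ZT14, with a median log2 ratio of 0.23 for genes whose longest coding transcript was under 1000 bases and of -0.09 for those of 4000 bases or more, and at ZT2 the medians were -0.08 and 0.02. After subtracting the median of its length class from each gene, a step chosen after the data were seen, the folding list had medians of -0.16 at ZT2 and 0.21 at ZT14 and the translocon list -0.14 and 0.21. For the 5 ER members this gave -0.06 and 0.05, and for the 3 members of the ATF4 group above the minimum 0.34 and 0.12. Single genes moved more. At ZT14 *Ppib* went from 0.47 to 0.23, *Sec61b* from 0.67 to 0.44, *Ssr4* from 0.53 to 0.30 and *Ddit3* from 0.35 to 0.12, all with transcripts under 1000 bases, while *Phgdh* went from 0.31 to 0.17, *Atf4* from -0.01 to -0.14 and *Aars* from -0.11 to -0.03. The macrophage markers had a median of -0.05 at ZT2 and 0.27 at ZT14, with 9 of 11 lower at ZT2 and 9 of 11 higher at ZT14. The B cell markers summed to 1376 CPM (ZT2) and 1662 CPM (ZT14) in control and 1288 CPM (ZT2) and 1168 CPM (ZT14) in MCS. The plasma cell markers summed to 78.4, 83.5, 63.8 and 78.2 CPM in the same order, and *Mzb1* had 41.5, 52.0, 26.4 and 49.2 CPM. Mast cell markers were highest in MCS at ZT2, where *Hspa5* was lowest, and lowest in MCS at ZT14, where it was highest. In control *Hspa5* was nearly equal at ZT2 and ZT14, and the mast cell markers were higher at ZT2. Their sums were 1858 CPM (ZT2) and 1222 CPM (ZT14) in control and 2293 CPM (ZT2) and 979 CPM (ZT14) in MCS. Neutrophil markers, with sums of 33.6, 32.3, 122 and 18.7 CPM in the same order, were close to level in control, highest in MCS at ZT2 and lowest in MCS at ZT14, the reverse of *Hspa5*. The eosinophil markers *Ccr3* and *Siglecf* were highest in MCS at ZT14, as *Hspa5* was, and the list had a median log2 ratio of MCS to control of 0.63 at ZT2 and 2.15 at ZT14, with 3 of 4 genes higher at each time. The rRNA precursor *Rn45s* made up 6.18% (ZT2) and 6.52% (ZT14) of the summed CPM in control and 4.47% (ZT2) and 6.40% (ZT14) in MCS, so that the library with the lowest *Hspa5* also stood apart in rRNA. With CPM recomputed without the 10 most abundant genes, of which *Rn45s* is one, the ratios of *Hspa5* were -0.28 at ZT2 and 0.31 at ZT14. The part of these cell types in the ratios of *Hspa5* and of the ER lists was not tested.

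Among the kinases of eIF2α, its phosphatase subunits and eIF2B, 7 of 12 genes were higher with MCS at ZT2 and 8 at ZT14, with median log2 ratios of 0.06 and 0.12. *Ppp1r15a*, which encodes GADD34, the stress-induced subunit that restores translation, had 13.9 CPM (ZT2) and 19.9 CPM (ZT14) in control and 14.96 CPM (ZT2) and 14.3 CPM (ZT14) in MCS. The control library at ZT14 was the high one, as for *Herpud1*, and the log2 ratio of MCS to control there was -0.47 (-0.80 to -0.15). *Atf3*, a transcription factor induced through ATF4, had 11.2 CPM (ZT2) and 16.3 CPM (ZT14) in control and 13.9 CPM (ZT2) and 24.9 CPM (ZT14) in MCS. Its log2 ratio of MCS to control was 0.31 at ZT2 (-0.08 to 0.71) and 0.61 at ZT14 (0.32 to 0.92).

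The list of transcription factors and feedback regulators of the integrated stress response had 13 of 16 genes above the minimum at ZT2, 7 higher and 6 lower, with a median of 0.04, and 14 at ZT14, 9 higher and 5 lower, with a median of 0.05. Relative to the medians of their length classes, 6 of the 14 were higher and 8 lower at ZT14, with a median of -0.03. *Ddit4*, an inhibitor of mTORC1 signaling, had 37.6 CPM (ZT2) and 18.0 CPM (ZT14) in control and 23.5 CPM (ZT2) and 35.4 CPM (ZT14) in MCS. Its ratio between the times had opposite signs in the treatments, with a log2 ratio of ZT2 to ZT14 of 1.06 in control (0.79 to 1.34) and -0.59 in MCS (-0.84 to -0.33). *Jdp2*, a repressor of the AP-1 family, had log2 ratios of ZT2 to ZT14 of 1.40 in control (1.03 to 1.80) and 1.15 in MCS (0.84 to 1.48), and edgeR called it for time with an adjusted p of 0.000405, higher at ZT2 under both treatments.

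The genes that ATF4 is known to raise for amino acid supply were mixed in direction. Of the amino acid synthesis and one carbon enzymes, 5 of the 9 genes above the minimum were lower with MCS at ZT2, with a median log2 ratio of -0.17, and 6 of 8 were higher at ZT14, with a median of 0.21. *Phgdh*, the first enzyme of serine synthesis, had 0.15 at ZT2 (-0.11 to 0.42) and 0.31 at ZT14 (0.05 to 0.57), and *Psat1*, which acts after it, -0.17 (-0.53 to 0.18) and 0.52 (0.19 to 0.86). Of the amino acid transporters, 5 of 7 were lower at each time, with medians of -0.05 and -0.10. *Slc7a11*, the cystine transporter, had 9.35 CPM (ZT2) and 9.78 CPM (ZT14) in control and 6.15 CPM (ZT2) and 15.4 CPM (ZT14) in MCS. It was nearly equal at ZT2 and ZT14 in control and had a log2 ratio of ZT2 to ZT14 of -1.31 in MCS (-1.81 to -0.87).

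Aminoacyl tRNA synthetases, several of which are ATF4 targets, had a median log2 ratio of MCS to control of -0.03 at ZT2, with 10 of 13 lower, and of 0.15 at ZT14, with 11 of 13 higher. *Lars* had -0.38 at ZT2 (-0.56 to -0.21) and 0.45 at ZT14 (0.29 to 0.61), while *Aars* had -0.03 and -0.11. The list of cytosolic heat shock chaperones also held some of mitochondria, and these genes respond to unfolded proteins outside the ER. Its medians for MCS against control were 0.03 at ZT2 and 0.07 at ZT14, and its larger ratios lay between the times of day. In control, 12 of the 14 were lower at ZT2 than at ZT14, beside 6293 of all 12465 genes, with a median log2 ratio of -0.25. In MCS, 12 of the 14 were lower at ZT2, beside 6197 of 12534 genes, with a median of -0.31. The ER members had medians of 0.05 in control and -0.04 in MCS. *Hspa1a* and *Hspa1b*, near-identical genes between which reads cannot be divided with certainty, had log2 ratios of -1.77 and -1.99 in control and of -1.38 and -1.05 in MCS.

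The promoters of the members were searched for the sequence elements through which the unfolded protein response and ATF4 are known to act. The windows were the 250 bases before the start of each gene in RefSeq on GRCm38.p6, which were found for all 10 genes, and both strands were read. The ER stress response element, CCAAT and CCACG 9 bases apart, occurred in the windows of 2 members and in 0.113% of 32851 windows. In the sequences, given on the strand of the gene with 5 bases on either side, capitals mark the element. The site of *Hspa5* is at chr2:34772020-34772048 on the plus strand, 47 to 65 bases before the RefSeq start, and GENCODE places it in a 5′ untranslated exon of a longer *Hspa5* transcript. Those of *Hsp90b1*, on the minus strand, are at chr10:86705633-86705661 and, with the element on the opposite strand, at chr10:86705528-86705556, outside any annotated gene.
Hspa5: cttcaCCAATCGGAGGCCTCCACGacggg
Hsp90b1 far site: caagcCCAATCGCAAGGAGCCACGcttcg
Hsp90b1 near site: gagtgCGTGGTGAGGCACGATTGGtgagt
*Hspa5*, with 1 match, had log2 ratios of MCS to control of -0.29 and 0.32, and *Hsp90b1*, with a pair of matches, had -0.00 and 0.07.

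The other elements were searched in the same windows. ER stress response element II, ATTGG and CCACG 1 base apart, occurred in *Herpud1* and in 0.0304% of all windows. The amino acid response element, written as TGATGNAA, occurred in *Herpud1*, *Chac1* and *Asns* and in 3.45% of all windows. The core of the unfolded protein response element, TGACGTGG, and the cyclic AMP response element, TGACGTCA, occurred in 0 members and in 0.563% and 1.55% of all windows. The sites of *Herpud1* are at chr8:94386372-94386392 and chr8:94386312-94386329 on the plus strand, in an intron of *Gm15890* on the opposite strand. That of *Chac1* is at chr2:119351044-119351061 on the plus strand, outside any annotated gene, and that of *Asns* at chr6:7693220-7693237 on the minus strand, in a 5′ untranslated exon of GENCODE. The amino acid response element lies on the opposite strand in *Herpud1* and *Chac1*.
Herpud1 element II: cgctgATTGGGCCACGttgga
Herpud1 amino acid response element: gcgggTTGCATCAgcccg
Chac1: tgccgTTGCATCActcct
Asns: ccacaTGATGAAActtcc
These sequences are shown for the members whose ratios are set side by side above, and a match describes the letters in a window. No member of the 5 without a match, *Xbp1*, *Dnajb9*, *Atf4*, *Ddit3* and *Trib3*, can be said from this to lack a site.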

How the data were processed

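RNA of sorted peritoneal macrophages was sequenced after rRNA depletion with a directional kit, in 4 libraries. As the methods and the submitters' processing notes state, reads were trimmed (Trimmomatic 0.38) and counted per gene (RSEM 1.3.0 with Bowtie 2) on mm10, and the authors deposited CPM normalized with edgeR. Annotation and use of the strand in counting are not stated in the sources used here. All values (100%) were whole multiples of the smallest step of their column, within 0.05 read, so reads were recovered, including any rounding by the authors of RSEM's estimates.

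Log2 ratios used the deposited CPM plus 0.1, which understates ratios of low genes. Intervals at 95% were conditional Clopper-Pearson intervals on the recovered reads, and those of a difference between ratios used the delta method. No test of a single pair of conditions, or of a difference in the effect of MCS between the times, was possible with 1 library each. As an alternative, edgeR's quasi-likelihood test with Benjamini-Hochberg adjustment was fitted with additive terms for time and MCS to the 12404 genes that had at least 40 reads over the libraries. It called 23 genes for MCS and 271 for time. Scripts were tested on simulated data.

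Genes named were all 10 members and, of 138 genes in the wider lists, those past the criteria in any comparison, the highest and lowest MCS ratio of each list at each time among genes with a mean of at least 10 CPM, and *Ern1*, *Eif2ak3*, *Atf6*, *Ppp1r15a* and *Atf3*. This covered 38 genes of the wider lists, part of which are described. Other genes are named only as cell markers, as rRNA or for an overlap with a member. The members and lists were chosen with earlier results of these data known. Gene models came from GENCODE M21 on GRCm38, the assembly of mm10, and promoters from RefSeq. Near-identical transcripts (at least 95% identity over 200 bases) were searched with blastn 2.17.0. Python 3.11.15 was used with scipy 1.17.1, pandas 2.3.3, numpy 2.4.6 and matplotlib 3.10.9, and R 4.3.3 with edgeR 4.0.16.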

Additional observations from a re-analysis of the deposited data

Results flagged for a closer look

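In 9 of the genes covered by the naming rule, which are the 10 members and 38 genes of the wider lists, the ratio of MCS to control had opposite signs at ZT2 and at ZT14, with both counting intervals beyond 0. Over all 12236 genes above the minimum in both comparisons 1248 met this criterion, or 10.2%, and in the wider lists 29 of 129 did, or 22.5%. The genes of the naming rule were chosen in part for extreme ratios, so their count is not set against these shares. With 1 library per condition the difference was not tested. *Hspa5* was the only one of the 10 members among them, lower with MCS at ZT2 and higher at ZT14, with a log2 difference between the times of 0.61. The others went in the same direction. The difference was 1.64 for *Ddit4*, 1.25 for *Slc7a11*, 1.15 for *Sec61b* and 1.11 for *Ssr4*. It was 0.83 for both *Lars* and *Ppib*, 0.72 for *Derl2* and 0.61 for *Derl1*. These differences were taken before subtracting the medians of the transcript length classes. After that step *Ppib* had -0.28 at ZT2 and 0.23 at ZT14, *Sec61b* -0.41 and 0.44, and *Ssr4* -0.51 and 0.30. *Lars* then had -0.38 and 0.42.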

How the results depend on the processing

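Of 200 log2 ratios of members under the alternatives for pseudocount, scaling and abundant genes, 200 stayed within the counting interval of the reported value. The length class step was not among these alternatives. It took the ratio of MCS to control for *Herpud1* at ZT14 from -0.329 to -0.463, just past the lower end of its interval at -0.461. Scaling by edgeR's TMM factors gave the deposited values again, so this alternative could move no ratio. For genes with few reads the counting intervals are wide and hard to leave. Within its interval the ratio of MCS to control for *Hsp90b1* at ZT2 changed sign, from -0.0023 to 0.0052 without the most abundant genes. The differences between ZT14 and ZT2, recomputed by a choice made after seeing the data, also stayed within their intervals. Medians of the ER chaperone group moved little, while those of the ATF4 group were unstable. Its median for MCS against control at ZT2, 1.03, became 0.39 with a pseudocount of 1 CPM and -0.13 over members with a mean of at least 10 CPM, and for ZT2 against ZT14 in MCS the median of 0.18 became -0.14 over those members. That alternative leaves *Atf4* alone in the group. Counts of members past the criteria moved. For MCS against control at ZT2 the count of 1 became 3 without the minimum expression, 0 with a log2 mean above 3 and 0 with a pseudocount of 1 CPM. At ZT14 it became 1 with a threshold of 0.5, and for ZT2 against ZT14 in MCS it became 1 with that threshold and 1 without the minimum. These changes come from *Asns*, *Chac1*, *Trib3* and *Hspa5*, and all but the last have few reads.

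No paired analysis was possible because each condition has 1 library and no replicate number, though the additive fit of edgeR compares MCS with control within each time. Depth limits the ATF4 group: *Trib3* and *Chac1* have at most 9 reads in a library. A difference between a pair of conditions cannot be told apart from one between their libraries.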
